A study of Homo sapiens with 4 samples.

Results

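Messages for the proteins of the mitochondrial ribosome that carry MRPL or MRPS symbols were followed in 4 RNA-seq libraries of MDA-MB-231. This is an established triple-negative breast cancer cell line. Members were chosen by symbol alone: every protein-coding gene of the deposited count table whose name starts with MRPL or MRPS and a number. The rule gave 78 of the 58735 genes in the table, 49 named for the large subunit (MRPL) and 29 for the small subunit (MRPS). Cells in all 4 groups carried TetOn-H2BeGFP by transduction, had been induced with doxycycline at 5 μg/ml for 3 days, stained with the Claret and Violet dyes and chased for 12 days, so the un-gated control shares the transgene, the drug and both dyes. The Claret, eGFP and Violet groups are the top 1% of cells by retention of that label, taken as slow-cycling because label is diluted at division, and Bulk went through the sorter without such a gate. Each group is 1 library, so no difference given here has a replicate check.

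Mitochondria have their own ribosome, which translates the few messages of the mitochondrial genome, all of them for subunits of the oxidative phosphorylation complexes. Its large subunit forms peptide bonds and its small subunit reads the messenger RNA. The ribosomal RNAs come from mitochondrial DNA, whereas every protein is made from a nuclear gene and imported. Some of the proteins descend from bacterial ribosomal proteins and others are found only in mitochondria.

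Libraries are named by their titles, which match the columns of the deposited tables. The treatment field names another sort in every sample, and by that field the un-gated library is the one titled Violet. With the treatment field the directions below turn: the median large-subunit log2 ratio to the un-gated library becomes 0.50 (Claret), 0.18 (eGFP) and 0.06 (Violet). The count of MKI67, a gene of proliferating cells, was 6778 in the library titled Bulk, 995 (Claret), 689 (eGFP) and 915 (Violet). Where 4 values of a gene follow each other below, their order is Bulk, Claret, eGFP, Violet, and 3 ratios to Bulk stand in the order Claret, eGFP, Violet. Summed read counts ranged from 15508179 to 16976909. The mesenchymal markers VIM, CD44, AXL, ZEB1 and MSN had 658 to 24390 reads, while CDH1, ESR1, PGR, PTPRC and ALB had 0 to 7, EPCAM 28 to 61, PECAM1 54 to 87 and GATA3 74 to 95.

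Messages of the mitochondrial ribosome were less abundant in each slow-cycling library than in Bulk. The 78 members together made up 3662 CPM (reads scaled to a library of fixed size) in Bulk against 2978 (Claret), 2840 (eGFP) and 2708 (Violet). The log2 ratio of these summed reads to Bulk was -0.30 in Claret (95% interval of the reads, -0.32 to -0.28), and it was -0.37 for eGFP and -0.44 for Violet. Such intervals cover counting error only. Less of these messages per cell cannot be told apart from fewer cells that hold them, since each library is a sorted population.

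Of the 78 members, 77 passed the filter of a mean of 1 CPM. The exception was MRPS24, a small-subunit protein, with 7 reads in Bulk against 6 (Claret), 13 (eGFP) and 12 (Violet), and 23.2% of its exon bases lie in URGCP-MRPS24, which has 0 reads. The log2 ratio to Bulk lay below 0 for 65 of the 77 members in Claret, 66 in eGFP and 72 in Violet. Their median was -0.29, -0.37 and -0.46 in that order, against -0.01, -0.01 and 0.01 over all 14585 genes tested. The SD of the members' log2 ratios was 0.34, 0.36 and 0.34, against 0.86, 0.90 and 0.86 over all genes. All genes reach down to a mean of 1 CPM, where counting error is larger. No set of genes matched for level was compared, so the SDs do not show that members move together.

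The shift was broad and small. A member was called when a two-sided exact binomial test of its reads in 2 libraries gave a Benjamini-Hochberg adjusted p under 0.05 over all genes tested and its log2 ratio reached 0.5 in size, which is 1.41-fold. That test compares the libraries, not the conditions. In Claret 19 of 77 members were called lower (24.7%, against 19.9% of all genes), in eGFP 27 (35.1%, against 20.8%) and in Violet 31 (40.3%, against 19.7%). Called higher were 2 members in Claret (21.9% of all genes), 1 in eGFP (22.7%) and 1 in Violet (23.2%). At 2-fold, 1 member in Claret, 4 in eGFP and 4 in Violet were called lower (6.72%, 7.64% and 6.91% of all genes, in each library a larger share than of the members), and 0 were called higher (11.2%, 11.9% and 11.6% of all genes). By adjusted p alone, 48, 54 and 57 of the 77 members were lower (35.5%, 36.1% and 34.9% of all genes) and 4, 2 and 3 were higher (33.3%, 33.8% and 34.5%). These calls see counting error alone. With a spread between cultures assumed at a coefficient of variation of 0.2, edgeR's exact test with Benjamini-Hochberg adjustment called 0 of 77 members in any library, with a smallest adjusted p of 0.104 (Claret), 0.0669 (eGFP) and 0.0625 (Violet). That test still called 10.3%, 11.9% and 10.8% of all genes. At an unadjusted p under 0.05 it gave 4, 5 and 10 lower members and 0, 1 and 0 higher ones.

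**Figure D1:**
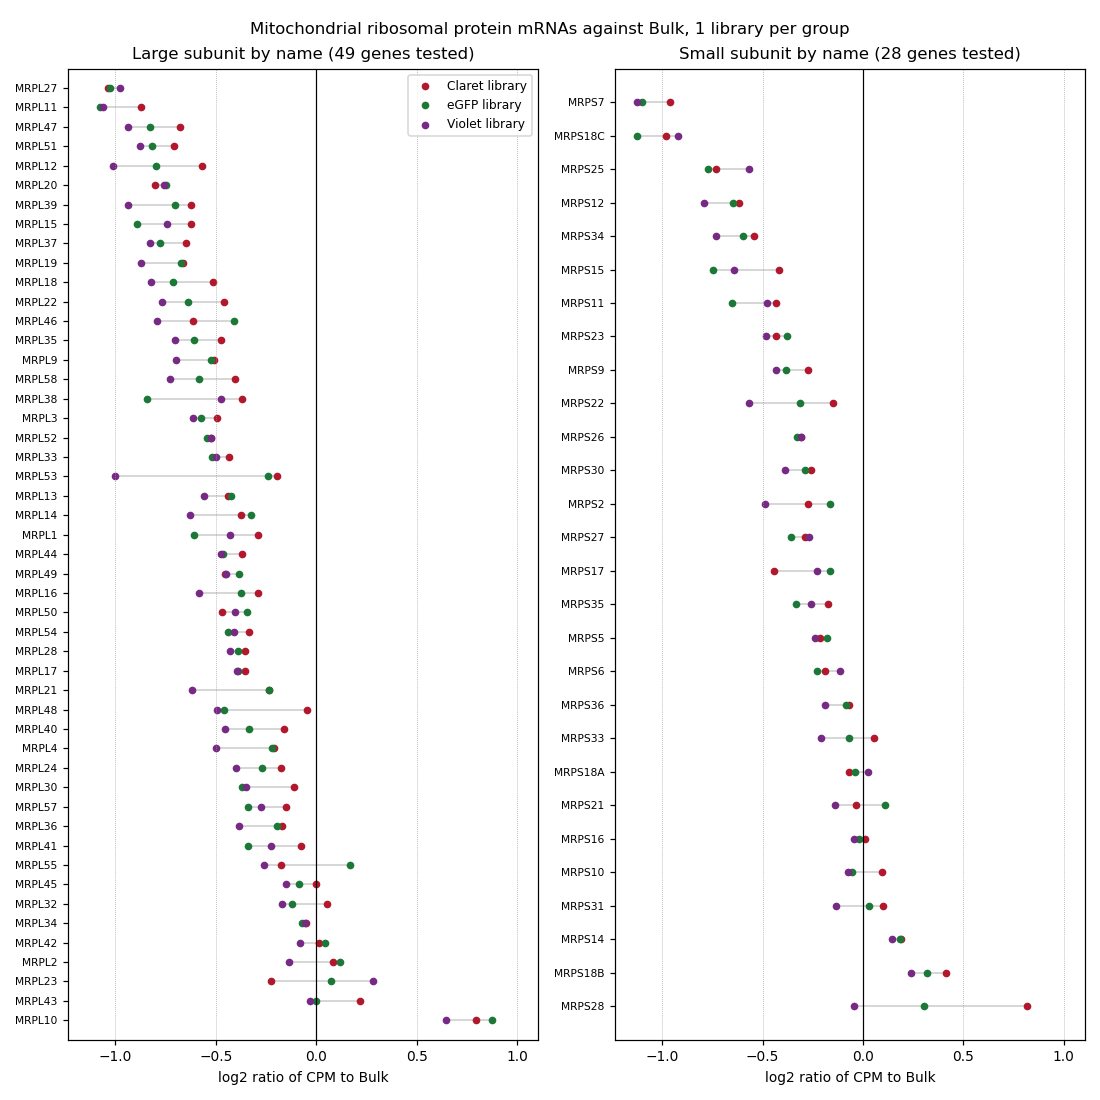
Log2 ratio to Bulk (x axis) of each of the 77 tested members (y axis), with 1 point for each slow-cycling library and large and small subunit in separate panels. Most points lie left of 0 in both panels, and MRPL10 stands to the right of 0 in all 3 libraries.

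With subunits taken by symbol, the large subunit lay further below Bulk than the small one. Summed large-subunit messages were 2349 CPM in Bulk against 1867 (Claret), 1778 (eGFP) and 1676 (Violet), and small-subunit messages were 1312, 1111, 1063 and 1031 CPM. The log2 ratio of the summed reads to Bulk was -0.33 (95% interval, -0.35 to -0.31) for the large and -0.24 (-0.27 to -0.21) for the small subunit in Claret. In eGFP it was -0.40 (-0.42 to -0.38) against -0.30 (-0.33 to -0.28), and in Violet -0.49 (-0.51 to -0.46) against -0.35 (-0.38 to -0.32). The intervals of the subunits do not overlap in any of the 3 libraries, but they cover counting error of the pooled reads only. They leave out the spread between members and between cultures, so they do not test the subunits against each other. The large subunit held 64.2% of the member reads in Bulk (exact 95% binomial interval, 63.8% to 64.6%), 62.7% (62.3% to 63.1%) in Claret, 62.6% (62.1% to 63.0%) in eGFP and 61.9% (61.4% to 62.4%) in Violet. On the length-corrected FPKM scale, the ratio of summed large to summed small messages was 2.02 in Bulk against 1.84 (Claret), 1.81 (eGFP) and 1.79 (Violet).

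Gene by gene, the median of the large subunit was also the lower one. The median log2 ratio to Bulk of the large subunit was -0.37 (Claret), -0.41 (eGFP) and -0.50 (Violet), and that of the small subunit was -0.24, -0.26 and -0.26. The difference of the medians, large minus small, was -0.13, -0.15 and -0.24. Below 0 were 44, 43 and 47 of the 49 large-subunit members and 21, 23 and 25 of the 28 small-subunit members tested. Called lower at a log2 ratio of 0.5 were 14 (28.6%), 20 (40.8%) and 24 (49.0%) of the large and 5 (17.9%), 7 (25%) and 7 (25%) of the small subunit. The Claret share of the small subunit, 17.9%, lies under the 19.9% of all genes. The difference between the subunits was not tested over members, which are not replicates of a condition.

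**Figure D2:**
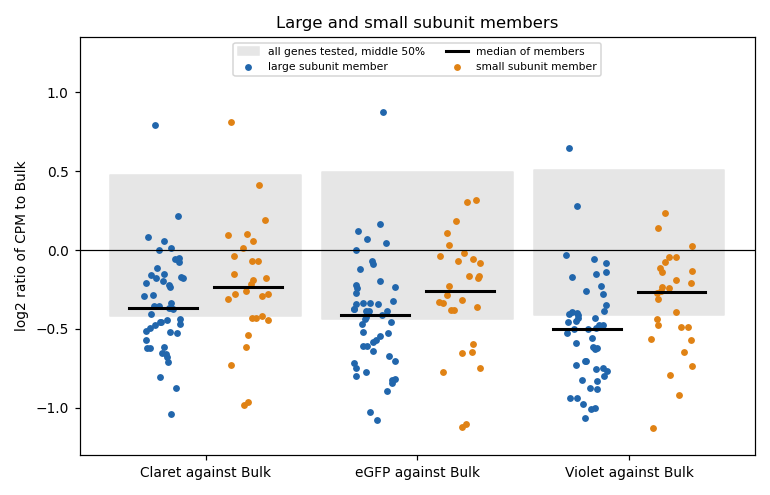
Log2 ratio of CPM to Bulk (y axis) of each tested member in the 3 slow-cycling libraries (x axis), large subunit in blue and small subunit in orange, with the median of members as a black line and the range between the quartiles of all tested genes as a grey band. The large-subunit median lies below the small-subunit median in each library, at -0.50 against -0.26 in Violet, and the points of the subunits overlap widely.

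Members split by descent lay close together in the large subunit. The 30 large-subunit members with a bacterial homologue had medians of -0.37, -0.41 and -0.57, and the 19 found only in mitochondria had -0.37, -0.41 and -0.47. In the small subunit the 16 tested members with a bacterial homologue had medians of -0.24, -0.17 and -0.23, and the 9 found only in mitochondria had -0.29, -0.33 and -0.31. MRPS18A, MRPS30 and MRPS36 were placed in neither group.

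Some symbols do not match the place of their protein. In structures of the human ribosome MRPS18A and MRPS30 sit in the large subunit, and MRPS36 is a subunit of the α-ketoglutarate dehydrogenase complex. MRPS18A was level, with 223 reads in Bulk against 229 (Claret), 219 (eGFP) and 227 (Violet) and log2 ratios of -0.07, -0.04 and 0.03, and 47.0% of its exon bases lie in RSPH9, which has 3 to 9 reads. MRPS36 was also close to Bulk, at 266, 273, 253 and 233 reads and log2 ratios of -0.07, -0.08 and -0.19. MRPS30 had 946, 852, 782 and 721 reads and log2 ratios of -0.26, -0.29 and -0.39, lower by adjusted p alone in all 3 libraries. With MRPS18A and MRPS30 counted as large-subunit genes and MRPS36 left out, the large minus small difference was -0.08 (Claret), -0.07 (eGFP) and -0.22 (Violet).

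Members called lower at a log2 ratio of 0.5 in all 3 slow-cycling libraries numbered 18 (23.4%, against 15.4% of all genes), of which 13 belong to the large subunit (MRPL9, MRPL11, MRPL12, MRPL15, MRPL18, MRPL19, MRPL20, MRPL27, MRPL37, MRPL39, MRPL47, MRPL51 and MRPL52) and 5 to the small (MRPS7, MRPS12, MRPS18C, MRPS25 and MRPS34). Being called in all 3 is not 3 independent results, because the 3 comparisons share the Bulk library. By adjusted p alone, 46 members (59.7%, against 29.8% of all genes) were lower in all 3, 31 large and 15 small. Higher in all 3 by adjusted p alone were MRPL10 and MRPS18B (2.6%, against 27.1% of all genes). At 2-fold, 0 members were called in all 3, against 4.93% of all genes lower and 8.49% higher. Called lower at 2-fold in at least 1 library were 6 of 77 members, against 1406 of 14585 genes. The 6 were MRPS7, MRPL27, MRPS18C, MRPL11, MRPL12 and MRPL53.

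The member with the lowest mean ratio was MRPS7, a protein of the head of the small subunit where it binds ribosomal RNA (ENSG00000125445, GRCh38 chr17:75261674-75266373, plus strand). MRPS7 had 75.9 CPM in Bulk against 38.9 (Claret), 35.3 (eGFP) and 34.7 (Violet). All 3 slow-cycling libraries lay near 35 to 39 CPM, about 1 log2 unit under Bulk. Its log2 ratio was -0.96 (95% interval, -1.10 to -0.83), -1.10 (-1.25 to -0.96) and -1.13 (-1.28 to -0.98).

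MRPL27, which lies beside the peptidyl transferase centre of the large subunit (ENSG00000108826, chr17:50367857-50373214, minus strand), had 45.8 CPM in Bulk against 22.3 (Claret), 22.4 (eGFP) and 23.2 (Violet). Its log2 ratio was -1.04 (-1.22 to -0.86), -1.03 (-1.22 to -0.85) and -0.98 (-1.16 to -0.80), and no pair of slow-cycling libraries was called. MRPL47, a protein near the exit tunnel of the large subunit (ENSG00000136522, chr3:179588285-179604654, minus strand), had 592 reads in Bulk against 398 (Claret), 336 (eGFP) and 308 (Violet). Its log2 ratio was -0.68, -0.83 and -0.94. MRPL20, whose bacterial counterpart acts early in large-subunit assembly (ENSG00000242485, chr1:1401908-1407313, minus strand), had 615, 379, 369 and 363 reads and log2 ratios of -0.80, -0.75 and -0.76. In these members, too, every slow-cycling library lay below Bulk and no pair among the 3 was called. MRPL51 (ENSG00000111639, chr12:6491886-6493841, minus strand), found only in mitochondria, had 116 CPM in Bulk against 70.8 (Claret), 65.8 (eGFP) and 62.9 (Violet) and log2 ratios of -0.71, -0.82 and -0.88. Of its exon bases 31.3% lie opposite NCAPD2, a condensin gene with log2 ratios of -1.68, -1.74 and -1.53. Use of strand in counting is not given in the sources used here, so reads of the overlap cannot be told apart.

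The start sites of MRPL20, MRPL27 and MRPL47 share a short run of letters. Of the 8 members with the lowest mean ratio, 4 (these and MRPL51) hold the letters CCGGAAGT, the core that ETS-family factors such as GABP bind, in the window of 300 bases around the start (250 before, 50 after, both strands). The 150 bases before a RefSeq start (RefSeq, GRCh38.p14) of each of these 3 are shown because they carry those letters close to the start. They are printed 5′ to 3′ on the minus strand, where all 3 genes lie, with the letters in capitals. The windows are chr1:1407294-1407443, chr17:50373185-50373334 and chr3:179604639-179604788.
MRPL20: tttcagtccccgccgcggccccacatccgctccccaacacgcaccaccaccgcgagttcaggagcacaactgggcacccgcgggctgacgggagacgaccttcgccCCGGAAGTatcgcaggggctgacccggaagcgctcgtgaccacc
MRPL27: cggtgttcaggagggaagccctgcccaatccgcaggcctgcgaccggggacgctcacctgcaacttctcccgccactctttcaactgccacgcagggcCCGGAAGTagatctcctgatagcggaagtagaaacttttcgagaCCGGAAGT
MRPL47: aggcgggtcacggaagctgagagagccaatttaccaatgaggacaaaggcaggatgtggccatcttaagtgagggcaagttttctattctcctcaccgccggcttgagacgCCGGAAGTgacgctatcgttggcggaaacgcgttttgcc
The letters end 36 bases before the start in MRPL20 and 31 in MRPL47. For MRPL47 RefSeq holds another start as well, which lies closer to the letters. MRPL27 holds them at 2 places, 44 and 0 bases before the start.

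Across all members, RefSeq gave 85 windows for 69 of the 78 genes, 52 large and 33 small. The ETS letters occurred in 14 of 85 member windows (16.5%) and in 4.14% of the 35116 windows of all genes, with 11 of the 14 in the large subunit. The YY1 letters AAGATGGCG occurred in 13 (15.3%) against 1.75%, and the NRF1 letters GCGCANGCG in 15 (17.6%) against 7.52%. At least 1 of these 3 motifs, none of which contains another, occurred in 37 member windows (43.5%) against 12.3% of all windows. The E-box letters CACGTG occurred in 9 (10.6%) against 7.26%, and the AP-1 letters TGANTCA in 1 (1.18%) against 7.71%. A match describes the letters in the window and says nothing of binding. The windows of all genes were not limited to genes that passed the filter. No set matched for level or GC content was compared, so these shares do not set members apart from other expressed genes. Windows of genes with several starts can overlap. Of the 8 members with the highest mean ratio, 4 have a RefSeq window, of which 0 hold the ETS letters and 1 the YY1 letters.

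Messages for the proteins of the stalk, the part of the large subunit that recruits translation factors, moved apart. This group was picked after its values were seen. MRPL11 lies at the stalk base (ENSG00000174547, chr11:66435075-66466738, minus strand) and had 66.1 CPM in Bulk against 36 (Claret), 31.3 (eGFP) and 31.6 (Violet), with log2 ratios of -0.87 (-1.02 to -0.73), -1.08 (-1.24 to -0.93) and -1.06 (-1.22 to -0.91). MRPL12, the counterpart of bacterial L7/L12 (ENSG00000262814, chr17:81703357-81707526, plus strand), had 377 reads in Bulk against 273 (Claret), 218 (eGFP) and 186 (Violet), with log2 ratios of -0.57 (-0.80 to -0.35), -0.80 and -1.01 (-1.28 to -0.76). Of its exon bases 68.2% lie in AC139530.2, which has 0 reads in all 4 libraries. MRPL10, which anchors MRPL12 to the base (ENSG00000159111, chr17:47823272-47831534, minus strand), went the other way, with 562 reads in Bulk against 1052 (Claret), 1041 (eGFP) and 879 (Violet). Its log2 ratio was 0.79 (0.65 to 0.95), 0.87 (0.73 to 1.03) and 0.64 (0.49 to 0.80). MRPL10 is the 1 member (1.3%, against 17.6% of all genes) called higher at a log2 ratio of 0.5 in all 3 slow-cycling libraries. Per length, MRPL11 and MRPL12 stood above MRPL10 in Bulk, at 26.4 and 23.6 FPKM against 13.1. In Claret the order was reversed, at 14.2 and 15.6 against 22.4 FPKM, and likewise in eGFP (12.2 and 13.3 against 23.6) and Violet (12.2 and 11.3 against 19.8). Whether the shared exon bases of MRPL12 lowered its FPKM was not tested, which limits its place in this order.

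**Figure D3:**
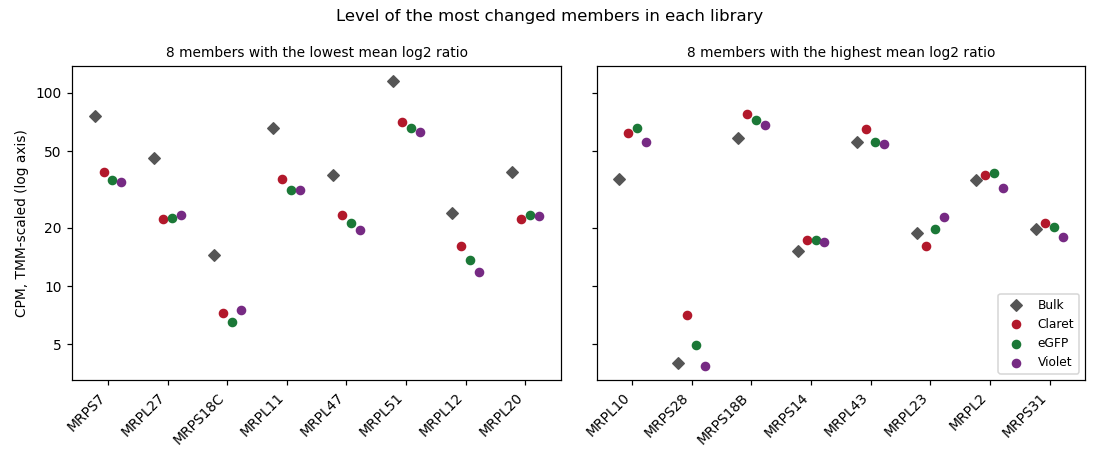
CPM on a log axis in each of the 4 libraries (Bulk as diamonds, slow-cycling libraries as circles) for the 8 members with the lowest and the 8 with the highest mean log2 ratio to Bulk, without error bars. In the left panel Bulk is the highest point of every member, for example MRPS7 at 75.9 CPM, and in the right panel MRPL10 has its lowest point in Bulk.

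The 3 genes descended from bacterial S18 differed as well. MRPS18C (ENSG00000163319, chr4:83455932-83469735, plus strand) had 227 reads in Bulk against 123 (Claret), 104 (eGFP) and 119 (Violet) and log2 ratios of -0.98, -1.12 and -0.92. Of its exon bases 40.2% lie in ABRAXAS1, a DNA repair gene on the other strand, which had log2 ratios of 0.79, 0.59 and 0.71. MRPS18B, a small-subunit protein (chr6:30617709-30626395, plus strand), had 916, 1317, 1153 and 1079 reads and log2 ratios of 0.42, 0.32 and 0.24, higher by adjusted p alone in each library. MRPS18A, given above, had 219 to 229 reads in all 4 libraries. Thus 1 of the 3 was lower, 1 higher by less than a log2 ratio of 0.5 and 1 level.

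The other members with the highest mean ratios lay near Bulk, except MRPS28 in Claret. MRPS28, related to bacterial S1, had 63 reads in Bulk against 121 (Claret), 79 (eGFP) and 61 (Violet), and was called higher in Claret with a log2 ratio of 0.81 (0.38 to 1.30), against 0.31 in eGFP and -0.04 in Violet, and 35.8% of its exon bases lie in AC036214.3, which has 0 to 1 read. MRPS14 (240, 295, 275 and 265 reads) had log2 ratios of 0.19, 0.18 and 0.14 and was not called. MRPL43 (876, 1099, 884 and 856 reads) had ratios of 0.22, 0.00 and -0.03, and 36.9% of its exon bases lie in SEMA4G. MRPL2, a protein of the peptidyl transferase centre, had ratios of 0.08, 0.12 and -0.14, and MRPS31 had 0.10, 0.03 and -0.13.

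The most abundant members differed in their ratios to Bulk. Among small-subunit members, MRPS34 had the highest mean FPKM, with 96.3 in Bulk against 65.3 (Claret), 62.5 (eGFP) and 56.0 (Violet), and log2 ratios of -0.54, -0.60 and -0.73. MRPS10, next in order, was near level at 44.9, 47.4, 42.5 and 41.3 FPKM, with log2 ratios of 0.10, -0.05 and -0.07. MRPS26 followed with 51.8, 41.3, 40.5 and 40.5 FPKM and ratios of -0.31, -0.33 and -0.31. The order of MRPS10 and MRPS26 differed between libraries, and their mean FPKM of 44.0 and 43.5 were close. In the large subunit the leading genes by mean FPKM were MRPL41 (53.1), MRPL51 (50.9) and MRPL14 (34.6). MRPL41 had 60.0 FPKM in Bulk against 56.2 (Claret), 46.5 (eGFP) and 49.6 (Violet), and MRPL14 had 43.7, 33.2, 34.3 and 27.3. At the low end lay MRPL46 (mean 0.90 FPKM), MRPL38 (1.23), MRPS18C (1.84) and MRPS24 (0.226). Median FPKM over members was 18.4 in Bulk against 15.6 (Claret), 15 (eGFP) and 12.5 (Violet) for the large subunit and 11.2, 9.69, 9.49 and 8.33 for the small.

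MRPL58, a peptidyl-tRNA hydrolase built into the large subunit that can free stalled chains (chr17:75012670-75021261), had 520 reads in Bulk against 423 (Claret), 349 (eGFP) and 313 (Violet) and log2 ratios of -0.40, -0.59 and -0.73. MRPL53, a large-subunit protein (chr2:74471958-74473322), had 46, 43, 39 and 22 reads. Its log2 ratio of -1.0 in Violet (-1.87 to -0.30, Benjamini-Hochberg adjusted p of the exact test 0.0081) rests on these few reads, and 45.2% of its exon bases lie in CCDC142.

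The slow-cycling libraries differed from each other far less than from Bulk. At a log2 ratio of 0.5, Claret against Violet gave 1 lower member, MRPL23 (1.65% of all genes), and 1 higher, MRPS28 (0.83%), while the other pairs gave 0 of 77 in either direction (1.15% and 1.06% of all genes for Claret against eGFP, 1.98% and 0.953% for eGFP against Violet). By adjusted p alone, 22 members (28.6%) were higher in Claret than in Violet, against 8.97% of all genes, and 1 was lower, against 8.43%. Of the 22, 15 belong to the large and 7 to the small subunit. The median log2 ratio of Claret to Violet over members was 0.15, with 65 of 77 above 0, and MRPL12 (0.44) was among those higher in Claret. Claret against eGFP had a median of 0.07 with 6 members higher (6.17% of all genes) and 1 lower (6.42%), and eGFP against Violet had 0.06 with 7 higher (8.7%) and 0 lower (8.46%). MRPL23, a protein at the exit tunnel (chr11:1947278-1984522), had 296 reads in Bulk against 273 (Claret), 314 (eGFP) and 360 (Violet), with log2 ratios to Bulk of -0.22 (-0.47 to 0.02), 0.07 and 0.28 (0.06 to 0.51).

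Members are spread over 21 chromosomes, with at most 8 on any, and 21 have a gene on the other strand that starts within 1000 bases. One such pair joins the subunits: MRPL46 and MRPS11 start 34 bases apart, and had log2 ratios of -0.61 and -0.43 in Claret, -0.41 and -0.65 in eGFP and -0.80 and -0.48 in Violet. Other neighbours, named after their values were seen, went with or against their member. MRPL27 (-1.04, -1.03 and -0.98), whose window is printed above, starts 6 bases from EME1 (-1.312, -1.395 and -1.146). MRPL18 (-0.52, -0.71 and -0.82) starts 63 bases from the chaperonin gene TCP1 (-1.20, -1.28 and -1.3). MRPL57 (-0.15, -0.34 and -0.28) starts 43 bases from the spindle gene SKA3 (-2.43, -3.13 and -2.87). MRPL47 starts 36 bases from NDUFB5, a complex I subunit, which was near level (-0.01, 0.04 and -0.08). MRPL52 (-0.52, -0.54 and -0.53) starts 59 bases from SLC7A7, an amino acid transporter that was higher (2.46, 1.87 and 1.69).

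Reads shared with other genes touch part of the set. Exon bases are shared with another gene in 41 of 78 members, and over 20% of them in 14. Among the 37 members with no shared exon base, 25 of them large, 6 (16.2%) were called lower at a log2 ratio of 0.5 in Claret, under the 19.9% of all genes, while 12 (32.4%) were in eGFP and 14 (37.8%) in Violet, against 20.8% and 19.7%. The small-subunit median in Claret was -0.12 among these members, and the large minus small difference there was -0.21. The 75 annotated MRP pseudogenes together held 79 to 120 reads per library, 0.137% to 0.281% of the member reads. Median exon GC content was 51.5% in large and 47.9% in small-subunit members. With log2 ratios corrected for GC content in 20 bins, the large minus small difference of the medians was -0.19 (Claret), -0.23 (eGFP) and -0.29 (Violet), further from 0 than without the correction.

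Messages for proteins of the mitochondrial ribosome with other symbols were also lower than in Bulk. The list DAP3, AURKAIP1, CHCHD1, PTCD3 and GADD45GIP1 had medians of -0.39, -0.33 and -0.55. All 5 were lower by adjusted p alone in each library, against 35.5%, 36.1% and 34.9% of all genes. Their medians lie below those of the MRPS genes in each library (-0.24, -0.26 and -0.26). The list was not split by subunit, and its genes enter neither subunit in the comparison of large and small above, which rests on symbols. AURKAIP1 had 1266 reads in Bulk against 908 (Claret), 837 (eGFP) and 732 (Violet). Of 28 ribosome assembly factors, 7 (25%), 11 (39.3%) and 11 (39.3%) were called lower at a log2 ratio of 0.5, against 19.9%, 20.8% and 19.7% of all genes. Called higher were 2, 2 and 1, against 21.9%, 22.7% and 23.2% of all genes, and the medians were -0.37, -0.44 and -0.35. The lowest was MRM2, a methyltransferase of the large ribosomal RNA (607, 349, 266 and 330 reads, log2 ratios -0.90, -1.20 and -0.87). The highest was TFB1M, a methyltransferase of the small ribosomal RNA (191, 400, 411 and 311 reads, 0.95, 1.08 and 0.70). Of 16 translation factors, 7 (43.8%), 8 (50%) and 8 (50%) were called lower, against 19.9%, 20.8% and 19.7% of all genes. Called higher were 0, against 21.9%, 22.7% and 23.2% of all genes, and the medians were -0.35, -0.55 and -0.36. By adjusted p alone, 10, 9 and 10 were lower (35.5%, 36.1% and 34.9% of all genes). Higher by that rule were 5, 4 and 2 (33.3%, 33.8% and 34.5%), and 6 of the 16 lay above 0 in each library. The elongation factor GFM1 was lowest, with 837, 469, 384 and 394 reads and log2 ratios of -0.94, -1.13 and -1.08.

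Of 14 genes of mitochondrial DNA expression and biogenesis, 5 (35.7%), 5 (35.7%) and 6 (42.9%) were called lower, against 19.9%, 20.8% and 19.7% of all genes. In each library 1 was called higher, against 21.9%, 22.7% and 23.2% of all genes. By adjusted p alone, 9, 8 and 9 were lower (35.5%, 36.1% and 34.9% of all genes) and 4, 4 and 3 higher (33.3%, 33.8% and 34.5%). The lowest was GABPB1, the beta subunit of GABP (506, 264, 212 and 235 reads, -1.04, -1.26 and -1.10). The next 3 genes were chosen after their values were seen, for the motifs above. GABPA, the DNA-binding subunit, had log2 ratios of 0.23, 0.25 and 0.38, NRF1 of -0.27, -0.13 and -0.47, and YY1 of -0.18, -0.19 and -0.18. The 1 gene called higher at a log2 ratio of 0.5 was MYC (1954, 3748, 3404 and 3131 reads, 0.83, 0.79 and 0.68).

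The mitochondrial ribosomal RNAs had more reads in the slow-cycling libraries. Reads of MT-RNR2, the large-subunit RNA, numbered 20937 in Bulk against 109102 (Claret), 107948 (eGFP) and 79177 (Violet), log2 ratios of 2.27, 2.35 and 1.92. MT-RNR1, the small-subunit RNA, had 5612, 13326, 12538 and 9928 reads and ratios of 1.14, 1.15 and 0.82. How ribosomal RNA was removed in library preparation is not given in the sources used here, and its part in these counts was not tested.

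Cytosolic ribosomal proteins and respiratory genes were set beside the members. Of 82 tested cytosolic ribosomal protein genes, 1, 2 and 3 were called lower at a log2 ratio of 0.5, against 19.9%, 20.8% and 19.7% of all genes. Called higher were 20 (24.4%), 17 (20.7%) and 9 (11%), near or under the 21.9%, 22.7% and 23.2% of all genes. By adjusted p alone, 69 (84.15%), 71 (86.59%) and 59 (71.95%) were higher, against 33.3%, 33.8% and 34.5% of all genes. Lower by that rule were 4, 6 and 13, against 35.5%, 36.1% and 34.9%. The 82 genes had medians of 0.39, 0.36 and 0.20, opposite in sign to the mitochondrial members. The 76 tested nuclear genes of oxidative phosphorylation had medians of -0.21, -0.26 and -0.35. Of these, 12 (15.8%), 19 (25%) and 24 (31.6%) were called lower, against 19.9%, 20.8% and 19.7% of all genes. Called higher were 1, 1 and 1, against 21.9%, 22.7% and 23.2%. By adjusted p alone, 42 (55.26%), 55 (72.37%) and 58 (76.32%) of the 76 were lower, against 35.5%, 36.1% and 34.9% of all genes. Higher by that rule were 11, 7 and 2, against 33.3%, 33.8% and 34.5%. The 13 proteins encoded in mitochondrial DNA, the products of the mitochondrial ribosome, had medians of -0.10, -0.25 and -0.12. Of their messages 2 (15.4%), 4 (30.8%) and 2 (15.4%) were called lower, against 19.9%, 20.8% and 19.7% of all genes. Called higher were 3 (23.1%), 2 (15.4%) and 2 (15.4%), against 21.9%, 22.7% and 23.2%. By adjusted p alone, 7, 8 and 8 were lower (35.5%, 36.1% and 34.9% of all genes) and 4, 4 and 4 higher (33.3%, 33.8% and 34.5%). No test was run of one list against another.

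**Figure D4:**
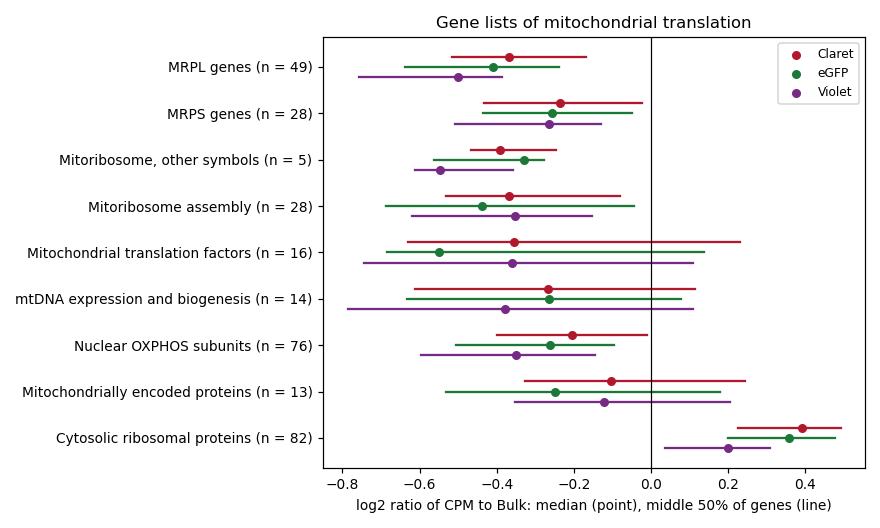
Median log2 ratio of CPM to Bulk (point, x axis) and range between the quartiles of the genes (line) for each gene list (y axis) in the 3 slow-cycling libraries. Of the lists drawn, which leave out the mitochondrial ribosomal RNAs, the median lies below 0 in all 3 libraries for each one but the cytosolic ribosomal proteins, whose medians are 0.39, 0.36 and 0.20.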

How the data were processed

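RNA of the 4 sorted populations was sequenced once each. Per the labels, the libraries came from a NEBNext Ultra kit. The authors deposited whole-number read counts per gene and FPKM values made from the same counts, per the file headers. HISAT2 2.0.5 and featureCounts 1.5.0-p3 are named in the submitters' processing notes, and settings, strand use and genome build are not given in the sources used here. Gene starts and ends in the deposited table equal those of GENCODE 29 (GRCh38) for all 58735 genes, and all coordinates are 1-based.

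Genes with a mean of at least 1 CPM (14585 genes) were kept. Library sizes were scaled by TMM (edgeR 4.0.16, R 4.3.3) and log2 ratios used a prior count of 2. With 1 library per group no test of the conditions exists, so the reads of 2 libraries were compared by a two-sided exact binomial test, Benjamini-Hochberg adjusted over 14585 genes, a method tested on simulated data. Intervals are 95% Clopper-Pearson, and a count of 0 allows 3 reads, 0.177 to 0.193 CPM.

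Members, lists and motif letters were chosen with earlier results of these data known. The cytosolic ribosomal and nuclear oxidative phosphorylation lists were added after the files were read. Named are the 8 lowest and 8 highest members by mean ratio, those called at 2-fold, the 3 most and 2 least abundant of each subunit by FPKM, the 3 with the widest range over slow-cycling libraries, and members of known role. The lowest and highest gene by mean ratio were named for the assembly factors and for mitochondrial DNA expression and biogenesis. For the translation factors and the ribosome proteins with other symbols only the lowest was named. No extremes were named for the cytosolic ribosomal, oxidative phosphorylation and mitochondrially encoded lists. Other names are said to be chosen after their values were seen. Alternatives were other scaling (summed counts, DESeq2 1.42.0), other filters and prior counts, log2(FPKM + 1), the treatment field, an assumed spread, a GC correction in 20 bins, MRPS18A and MRPS30 moved with MRPS36 left out, and members without overlaps.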

Additional observations from a re-analysis of the deposited data

Results flagged for a closer look

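Members whose log2 ratios differed between slow-cycling libraries by 0.5 or more, with a Benjamini-Hochberg adjusted p of the exact binomial test on reads under 0.05, numbered 2. MRPL23 was lower in Claret than in Violet by a log2 ratio of -0.505 (adjusted p 0.000231), which became -0.526 with summed counts and -0.494, under the threshold, with DESeq2 size factors. MRPS28 was higher in Claret than in Violet by 0.858 (adjusted p 0.00119), with 0.838 and 0.869 under those scalings, from 121 against 61 reads. Of its exon bases 35.8% lie in AC036214.3 on the same strand, which has 0 to 1 read. Each rests on 1 library per sort, and the test compares those libraries.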

How the results depend on the processing

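No paired analysis was possible because each group holds 1 library, and no library could be left out. Under every alternative that keeps the titles as groups, the median log2 ratios to Bulk of both subunits and the large minus small difference stayed below 0. With the treatment field as groups, the large minus small difference was 0.24 (Claret), 0.068 (eGFP) and 0.0080 (Violet). The large-subunit median was then 0.50, 0.18 and 0.064 and the small-subunit median 0.26, 0.11 and 0.056. These compare the libraries titled Bulk, Claret and eGFP with the one titled Violet. Members called higher at a log2 ratio of 0.5 were then 31 in Claret (19.7% of all genes), 1 in eGFP (0.83%) and 0 in Violet (0.953%). At 2-fold 4 were higher in Claret (6.91% of all genes). Called lower at 0.5 were 1, 1 and 0 (23.2%, 1.65% and 1.98% of all genes), and at 2-fold 0 in each. Summed CPM was then 3662 (Claret), 2978 (eGFP) and 2840 (Violet). The other values below use the titles.

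With an assumed coefficient of variation of 0.2, counts of calls in Claret, eGFP and Violet were 0 at both thresholds and in both directions. With a filter at 10 CPM, 1 member was higher at 0.5 in Claret, and 0, 2 and 1 were lower at 2-fold in Claret, eGFP and Violet. The summed CPM was then 3007, 2873 and 2753, because fewer genes set the scaling. Without members that overlap another gene, 1 was higher at 0.5 in Claret, and 6, 12 and 14 were lower at 0.5. At 2-fold 1 was lower in eGFP and 0 in Violet, and summed CPM was 1495, 1406 and 1335, over fewer members. On log2(FPKM + 1), 0 were lower at 2-fold in Claret and 2 in eGFP. With summed counts alone, 2 were lower at 2-fold in Violet, where summed CPM was 2749. With DESeq2 size factors, 0 were lower in Claret against Violet. The cause was not tested where none is named. The remaining 219 values moved by less than the median half-width of a single member's interval (0.161 to 0.18), a wide limit for a median, or, for summed CPM, within their interval, or, for counts, by at most 1.5 times. Among them, the small-subunit median in Claret was -0.15 at 10 CPM and -0.12 without overlapping members, where large minus small was -0.21. With MRPS18A and MRPS30 moved and MRPS36 left out that difference was -0.08 in Claret and -0.07 in eGFP, and with the GC correction it was -0.19, -0.23 and -0.29. Depth limits members of few reads, such as MRPS24, MRPL53 and MRPS28.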
